A study of Homo sapiens with 18 samples.

Results

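Antiviral restriction factor genes (7 of 25721 genes in the TPM tables) were followed in triple-negative breast cancer (TNBC) cells silenced for PBRM1, IRF1 or MUC1. These were MX1, MX2, BST2, RSAD2, ISG20, ZC3HAV1 and SHISA5, chosen by name as host genes that block steps of viral replication, and each of the 7 was present in all 3 tables. The data comprise 18 RNA-seq libraries, 3 for each of 6 groups. BT-549, a TNBC line, stably carried PBRM1shRNA or was its control, and in a separate experiment carried IRF1shRNA or a control shRNA. The sample titles and column names do not say whether the PBRM1 controls carried a hairpin. In its accessibility assays the paper set PBRM1shRNA cells beside control shRNA cells. MDA-MB-436/tet-MUC1shRNA cells, also a TNBC line, carried an inducible MUC1 hairpin and were treated with doxycycline (DOX) at 500 ng/ml or with 0.1% DMSO as vehicle. The hairpin of an shRNA yields a small RNA that lets the cell degrade the matching transcript. Cells with a hairpin vector had been selected in puromycin. Each silenced group rests on a hairpin population of a single line, and no DOX-treated cells with a control hairpin were analysed here.

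MX1 and MX2 are dynamin-like GTPases that trap incoming viral ribonucleoproteins and capsids. BST2 (tetherin) anchors budding virions to the cell surface, and RSAD2 (viperin) is a radical SAM enzyme that makes a chain-terminating nucleotide. ISG20 is an RNA exonuclease, ZC3HAV1 (ZAP) binds CpG-rich viral RNA and directs its decay, and SHISA5 (Scotin) is an endoplasmic reticulum protein known as a p53 target that also restricts some viruses. Most of these genes are induced by interferon (IFN) through motifs in their promoters, the IFN-stimulated response element (ISRE), bound by complexes that contain IRF9, and the gamma-activated site (GAS). IRF1 recognizes ISRE-like motifs, and PBRM1 is the chromatin-targeting subunit of the PBAF remodeling complex.

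The stretches of promoter that match the ISRE core or GAS are shown because IRF9 and IRF1, whose transcripts changed with the members in BT-549 cells, are known to act through ISRE-like motifs, and because the GAS is the other classical IFN motif. They were read from RefSeq promoter windows (GRCh38.p14) of 300 bases, 250 before and 50 after each annotated start, which covered 6 of the 7 genes with 10 windows. The ISRE core was searched as GAAANNGAA and the GAS as TTCNNNGAA, on both strands. Capitals mark the matched letters, each stretch reads 5′ to 3′ on the strand of its gene, and positions count from the start.
MX1, first start, ISRE core matches at 12 and 18 after the start, chr21:41420561-41420590, plus strand: gcagaaatGAAACCGAAACTGAAttgtccg
BST2, ISRE core matches at -130 and -124, chr19:17405739-17405768, minus strand: ctttctggGAAACTGAAACTGAAaacctaa
RSAD2, first start, ISRE core at -79, chr2:6865795-6865824, plus strand: cagcgggaaacGAAAGCGAAgcgttgcggg
RSAD2, second start, ISRE core on the opposite strand at -144, chr2:6877622-6877651, plus strand: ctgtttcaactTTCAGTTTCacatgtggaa
ISG20, ISRE core at -69, chr15:88638936-88638965, plus strand: ataacaaactaGAAACTGAAacagggtcgg
SHISA5, second start, ISRE core on the opposite strand at 40 after the start, chr3:48473109-48473138, minus strand: catctggaggagatttgctTTCTTTTTCtc
ZC3HAV1, GAS at -104, chr7:139109806-139109835, minus strand: gggtctgctctTTCCGGGAAtgggtggggt
BST2, GAS at -58, chr19:17405670-17405699, minus strand: ggtcagagcacTTCCTGGAActtgctattg
In both MX1 and BST2 the pair of ISRE core matches overlapped and shared the letters GAA. The ISRE core was present in 7 of the 10 windows and in 5 of the 6 genes, against 8.11% of 35116 windows and 9.86% of 27305 genes in the whole table. The GAS was present in 3 windows of 3 genes, against 7.66% of windows and 9.38% of genes. A further GAS in BST2 at -136 and another at the third MX1 start at -189 each shared 3 letters with an ISRE core match, and the ISRE core match at that MX1 start lay at -195. ZC3HAV1 had no ISRE core in its window, the second MX1 start and the first SHISA5 start had neither motif, and MX2 had no window in the table. The matches are a description of letters in these windows and were not tested as binding sites.

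**Figure D1:**
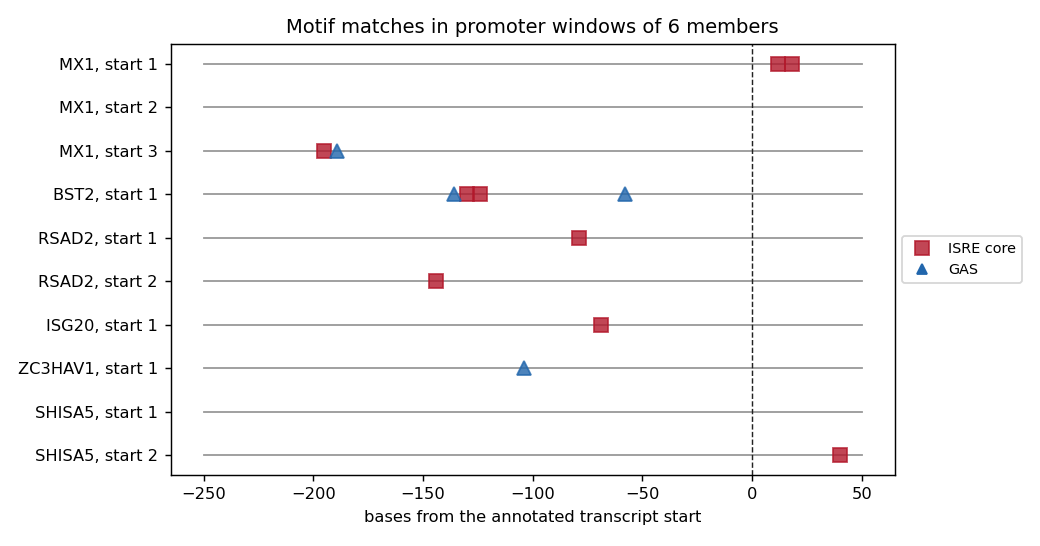
Motif matches by distance from each annotated start, in bases, for 10 promoter windows of 6 genes (squares, first base of ISRE core matches; triangles, first base of GAS matches; dashed line, start). ISRE core matches sit between -144 and -69 at the BST2, RSAD2 and ISG20 starts and just downstream of the first MX1 start.

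Values are TPM, a length-corrected abundance with the same total in every library, and each experiment was fitted on its own. Fold changes are differences of log2(TPM + 1) with their standard errors, silenced minus control or DOX minus vehicle. They understate changes of genes near or below 1 TPM. "Lower" and "higher" refer to an adjusted p under 0.05 (limma, Benjamini-Hochberg over all tested genes), and "called" genes also had an absolute log2 fold above 1. Of total TPM, short noncoding RNAs made up 75.7% to 79.2% for libraries with PBRM1shRNA and their controls, 84.8% to 88.5% for those of the IRF1 experiment and 11.97% to 15.1% for MDA-MB-436 cells, so that no test was run across tables. The targeted transcripts were lower in each experiment. PBRM1 was at 2.96 TPM in PBRM1shRNA cells against 11.9 TPM in control cells, IRF1 at 1.17 TPM in IRF1shRNA cells against 4.75 TPM in control cells, and MUC1 at 3.03 TPM in DOX-treated cells against 5.63 TPM in vehicle-treated cells. Group means of VIM, a mesenchymal gene, were 208 to 1807 TPM, those of ESR1 and PGR were at most 0.0643 TPM, and the T cell gene CD3E was listed at 0 in every group. Not every leukocyte-associated gene was near 0. In MDA-MB-436 cells CD68 was at 100 TPM with DOX and 106 TPM with vehicle, and CD14 at 9.03 and 4.34 TPM. CD68 was at 5.90 TPM in IRF1shRNA cells and 8.42 TPM in their controls.

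PBRM1 silencing in BT-549 cells was accompanied by lower levels of all 7 genes, and for MX1, BST2, RSAD2 and MX2 less than 1% of the control level was left. The remaining level was 17.6% for ISG20, 40.8% for ZC3HAV1 and 67.9% for SHISA5. Among 10639 tested genes 34.8% were lower and 3.86% were called lower, and 5 of the 7 were called lower. None was higher or called higher (0 of 7), against 24.6% and 1.02% of tested genes. None of the 7 genes overlapped between PBRM1shRNA and control libraries, as was the case for 62.0% of tested genes. MX1, MX2, BST2, RSAD2 and ISG20 passed the filter on low values only through the control group, so their presence among the tested genes already required higher control values. In such bulk RNA, fewer expressing cells and less RNA per cell cannot be told apart. With 3 libraries against 3, an exact permutation test of a single gene cannot go below p = 0.1 (two-sided).

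MX1 was present at 0.391, 0.325 and 0.229 TPM in PBRM1shRNA libraries, against 254, 230 and 263 TPM in control libraries. The groups were separated by almost 3 orders of magnitude, and the mean of 0.315 ± 0.0812 TPM in silenced cells was 0.126% of the 249 ± 16.9 TPM in control cells (SD, n = 3 each). Its log2 fold of -7.57 ± 0.09 was the most negative of all 10639 tested genes. MX2, the paralog that blocks nuclear entry of HIV capsids, lies 10913 bases upstream of MX1 on chromosome 21 and stood at a far lower level. It was at 0.0280, 0.00970 and 0.0191 TPM in PBRM1shRNA libraries and at 14.0, 12.9 and 14.8 TPM in control libraries. The MX2 mean was 0.136% of the control mean, close to the share left of MX1, with a log2 fold of -3.87 ± 0.08. The ratio of MX1 to MX2 was 19.8 ± 11.9 in PBRM1shRNA cells and 17.9 ± 0.198 in control cells (SD, n = 3 each). The 3 silenced ratios ranged between 11.97 and 33.5, on both sides of the control ratios (exact permutation p = 1, two-sided), and each rests on an MX2 value of 0.0280 TPM or less.

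BST2 had the log2 fold next to that of MX1, but kept the largest share of control among MX1, MX2, BST2 and RSAD2. It was at 0.611, 0.555 and 0.579 TPM in PBRM1shRNA libraries, against 164, 146 and 162 TPM in control libraries. All silenced libraries were below 1 TPM, the mean was 0.369% of that in control cells, and the log2 fold of -6.65 ± 0.09 was second in the whole table. RSAD2 was at 0.0641, 0.0809 and 0.0638 TPM in PBRM1shRNA libraries, against 39.6, 35.5 and 43.5 TPM in control libraries. The silenced mean was 0.176% of the control mean, and the log2 fold of -5.24 ± 0.09 ranked 11 of 10639 from the most negative. In each of the 4 genes the silenced libraries lay below 1 TPM, where the log2(TPM + 1) scale compresses differences. Ranks on this scale therefore depend on the control level and are not ranks by the share left. OAS1 and OAS2, described below, kept smaller shares of control than MX1, at 0.0360% and 0.0522%.

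The other 3 genes were reduced less. ISG20 was low even in control cells, at 0.246, 0.255 and 0.230 TPM in PBRM1shRNA libraries against 1.31, 1.38 and 1.47 TPM in control libraries. The groups did not overlap, and the log2 fold was -0.94 ± 0.07 (adjusted p = 8.0e-40), just short of the fold required for a call. As ISG20 passed the filter only through control cells, this separation and the sign of the fold were already required. ISG20 was called lower when short noncoding RNAs were removed and TPM rescaled, or with a pseudocount of 0.1. ZC3HAV1 was at 6.23, 5.51 and 6.07 TPM in PBRM1shRNA libraries, against 15.6, 12.6 and 15.5 TPM in control libraries. All silenced libraries were thus below the lowest control library, with a log2 fold of -1.16 ± 0.09 (adjusted p = 4.6e-38). SHISA5 was at 37.4, 38.2 and 36.5 TPM in PBRM1shRNA libraries, against 58.0, 50.6 and 56.5 TPM in control libraries. It was the least changed of the 7, with a log2 fold of -0.54 ± 0.09 (adjusted p = 2.1e-09).

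**Figure D2:**
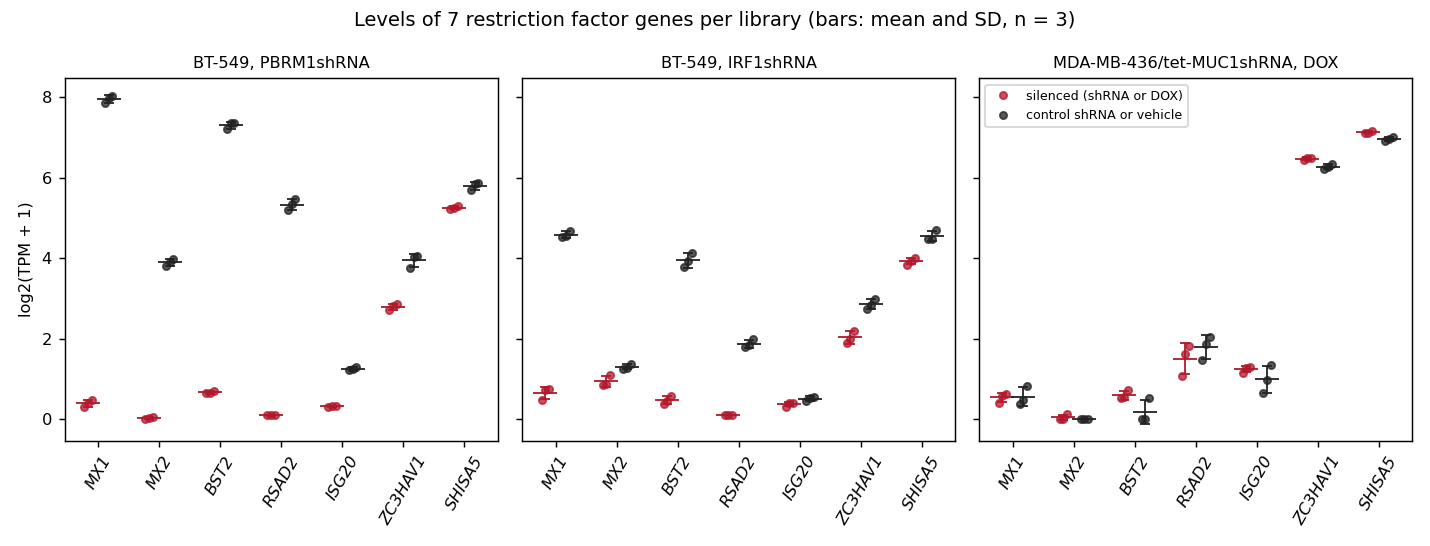
Levels of the 7 genes as log2(TPM + 1) in each of 18 libraries (red for shRNA or DOX, black for control or vehicle, points for libraries, bars for mean and SD, n = 3). In BT-549 cells the MX1, BST2 and RSAD2 points of silenced libraries lie far below those of controls, while in MDA-MB-436 cells SHISA5 and ZC3HAV1 are the most abundant and MX1, MX2 and BST2 are near 0.

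The macrophage-associated gene CD68 was at 12.9 TPM in PBRM1shRNA cells and 33.7 TPM in control cells, whereas PTPRC, the common leukocyte gene, was at 0.00776 TPM in PBRM1shRNA cells and 0.0447 TPM in control cells. CD14, a monocyte gene, was at 0.244 TPM in PBRM1shRNA cells and 0.113 TPM in control cells. The defining leukocyte markers PTPRC and CD3E were thus at or near 0 in both groups. With short noncoding RNAs removed the median log2 fold of all tested genes was -0.16, against -0.05 as deposited, and 6435 genes were lower and 2846 higher, against 3707 lower and 2620 higher as deposited. All 7 genes were lower under either scaling.

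IRF1 silencing in BT-549 cells was accompanied by lower levels of the same genes, but with a different order. MX1, BST2 and RSAD2 were left at 2.51%, 2.69% and 2.79% of control, whereas MX2, SHISA5 and ZC3HAV1 kept 63.2%, 62.8% and 49.5%. Of 9135 tested genes 18.5% were lower and 1.78% were called lower, and the 6 restriction factor genes that could be tested were lower, with 3 of them called. None was higher or called higher (0 of 6), against 5.76% and 0.0547% of tested genes. The 3 called genes passed the filter only through the control group, and ISG20 did not pass. The groups did not overlap for any of the 7 genes, as for 33.9% of tested genes. Tested genes split into 1693 lower and 526 higher, into 3184 and 3119 after median-ratio scaling, and into 3743 and 4500 with short noncoding RNAs removed, and the 6 genes were lower under each scaling.

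MX1 was at 0.401, 0.671 and 0.660 TPM in IRF1shRNA libraries, against 21.98, 22.5 and 24.6 TPM in control libraries. Every silenced library was below 1 TPM, and the log2 fold of -3.93 ± 0.14 (adjusted p = 5.4e-161) was the second most negative of the table. BST2 was at 0.308, 0.496 and 0.368 TPM in IRF1shRNA libraries and at 14.3, 12.7 and 16.5 TPM in control libraries. Its log2 fold was -3.47 ± 0.14 (adjusted p = 1.3e-137), at rank 4 from the most negative. RSAD2 was at 0.0773, 0.0696 and 0.0769 TPM in IRF1shRNA libraries, against 2.46, 2.59 and 2.97 TPM in control libraries. The control mean was 35.9 times the silenced mean, with a log2 fold of -1.77 ± 0.09 (adjusted p = 2.6e-84). MX1, BST2 and RSAD2 all passed the filter only through control cells, so a negative fold was already required. Their p-values therefore lend the direction of these folds no separate support.

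MX2 did not follow MX1 in this experiment. It was at 0.802, 1.13 and 0.844 TPM in IRF1shRNA libraries, against 1.59, 1.42 and 1.38 TPM in control libraries. The groups did not overlap but lay close together, with a log2 fold of -0.36 ± 0.10 (adjusted p = 0.0013). MX2 no longer passed the test without IRF1shRNA replicate 1 (adjusted p = 0.058), without IRF1shRNA replicate 3 (adjusted p = 0.063) and with no filter on low values (adjusted p = 0.054). MX2 therefore exceeded MX1 in each IRF1shRNA library, and the MX1 to MX2 ratio was 0.625 ± 0.144 in IRF1shRNA cells, against 15.8 ± 2.01 in control cells (SD, n = 3 each). The 3 silenced ratios, 0.500, 0.593 and 0.782, were all below the control ratios of 13.8, 15.8 and 17.8 (exact permutation p = 0.1, two-sided, the smallest this design allows).

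ZC3HAV1 was at 2.72, 3.58 and 2.99 TPM in IRF1shRNA libraries, against 6.98, 6.10 and 5.69 TPM in control libraries. The log2 fold was -0.83 ± 0.14 (adjusted p = 1.1e-07). SHISA5 was at 13.3, 15.02 and 14.3 TPM in IRF1shRNA libraries, against 25.1, 21.4 and 21.4 TPM in control libraries, and its log2 fold was -0.63 ± 0.15 (adjusted p = 3.0e-04). Both genes were below every control library in all 3 silenced libraries. ISG20 was below the filter, at 0.241, 0.325 and 0.319 TPM in IRF1shRNA libraries and 0.469, 0.361 and 0.435 TPM in control libraries. The ISG20 groups did not overlap (exact permutation p = 0.1, two-sided), and its adjusted p was 0.086 with no filter and 0.015 with short noncoding RNAs removed.

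**Figure D3:**
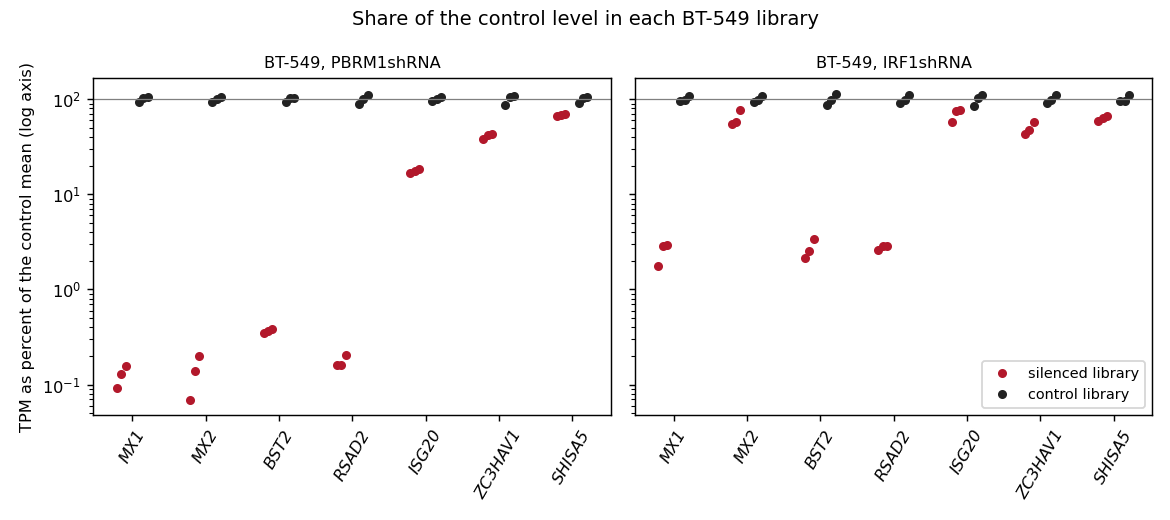
TPM of each BT-549 library as percent of the control mean of its own experiment, on a log axis (red, silenced libraries; black, control libraries; 3 points each). MX2 is at 0.136% of control in PBRM1shRNA cells and at 63.2% in IRF1shRNA cells, while MX1, BST2 and RSAD2 are far below control in both.

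The order of the 7 levels was also examined within each group, on the TPM scale. In PBRM1shRNA cells SHISA5 was highest at 37.4 TPM and ZC3HAV1 followed at 5.94 TPM, then BST2 at 0.582 TPM, MX1 at 0.315 TPM and ISG20 at 0.243 TPM, with RSAD2 and MX2 lowest. The MX1 and ISG20 libraries overlapped. In control cells of that experiment the order was MX1 at 249 TPM, BST2 at 158 TPM, SHISA5 at 55.0 TPM and RSAD2 at 39.5 TPM, then ZC3HAV1 at 14.5 TPM and MX2 at 13.9 TPM, whose libraries overlapped, and ISG20 at 1.39 TPM. In IRF1shRNA cells SHISA5 at 14.2 TPM and ZC3HAV1 at 3.10 TPM were again highest and RSAD2 at 0.0746 TPM lowest. Between these, MX2 at 0.926 TPM lay above MX1 at 0.578 TPM, BST2 at 0.390 TPM and ISG20 at 0.295 TPM, of which neighbours in the order MX1, BST2, ISG20 overlapped. In the matching control cells MX1 at 23.0 TPM and SHISA5 at 22.6 TPM overlapped, followed by BST2 at 14.5 TPM, ZC3HAV1 at 6.26 TPM, RSAD2 at 2.68 TPM, MX2 at 1.47 TPM and ISG20 at 0.422 TPM. With DOX in MDA-MB-436 cells SHISA5 at 140 TPM and ZC3HAV1 at 88.1 TPM lay far above RSAD2 at 1.89 TPM and ISG20 at 1.36 TPM, which overlapped, as did BST2 at 0.506 TPM and MX1 at 0.457 TPM below them. With vehicle SHISA5 at 124 TPM and ZC3HAV1 at 76.8 TPM again lay far above RSAD2 at 2.51 TPM and ISG20 at 1.02 TPM. MX1, at 0.300 to 0.765 TPM with vehicle, overlapped with ISG20 and with BST2, which was listed at 0 to 0.448 TPM.

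MDA-MB-436/tet-MUC1shRNA cells had ample ZC3HAV1 and SHISA5 and little of the other 5 genes, and none of the 4 tested members was lower with DOX (0 in limma, and 0 at an unadjusted p under 0.05). Of 13229 tested genes 27% were higher and 1.34% were called higher on DOX, and 23.4% were lower and 1.35% called lower. ZC3HAV1 and SHISA5 were higher with DOX, and 0 of the 4 tested members were called. ZC3HAV1 was at 89.6, 88.7 and 86.0 TPM with DOX, against 73.8, 80.2 and 76.3 TPM with vehicle. The groups did not overlap, and the log2 fold was 0.20 ± 0.04 (adjusted p = 0.0044). SHISA5 was at 137, 144 and 139 TPM with DOX and at 128, 124 and 120 TPM with vehicle. Again the groups did not overlap, with a log2 fold of 0.18 ± 0.04 (adjusted p = 0.0045). Such separation was common in this experiment, where it held for 59.2% of all tested genes. With DOX the levels were 115% and 113% of vehicle, small changes beside those in BT-549 cells, and the difference between the lines was not tested.

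RSAD2 and ISG20 were present at a few TPM and did not pass the test. RSAD2 was at 2.06, 2.51 and 1.10 TPM with DOX, against 3.14, 1.77 and 2.63 TPM with vehicle (log2 fold -0.29 ± 0.22, adjusted p = 0.29). ISG20 was at 1.41, 1.22 and 1.45 TPM with DOX, against 1.52, 0.564 and 0.971 TPM with vehicle (log2 fold 0.25 ± 0.19, adjusted p = 0.30). The libraries of DOX and vehicle overlapped for both genes. MX1, BST2 and MX2 were below the filter. MX1 was at 0.328, 0.551 and 0.491 TPM with DOX and 0.300, 0.765 and 0.394 TPM with vehicle (exact permutation p = 1, two-sided). BST2 was at 0.426, 0.455 and 0.638 TPM with DOX, whereas it was listed at 0 in 2 vehicle libraries and at 0.448 TPM in the third (exact permutation p = 0.2, two-sided). MX2 was listed at 0 in 5 of the 6 libraries and at 0.0884 TPM in DOX replicate 3. The mean normalized counts in the authors' tables were 8.58 for MX1, 1.32 for BST2 and 0.212 for MX2 in this experiment, so that these values rest on few reads. The same authors' means were 38.5 for RSAD2 and 23.1 for ISG20, and 3371 for ZC3HAV1.

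**Figure D4:**
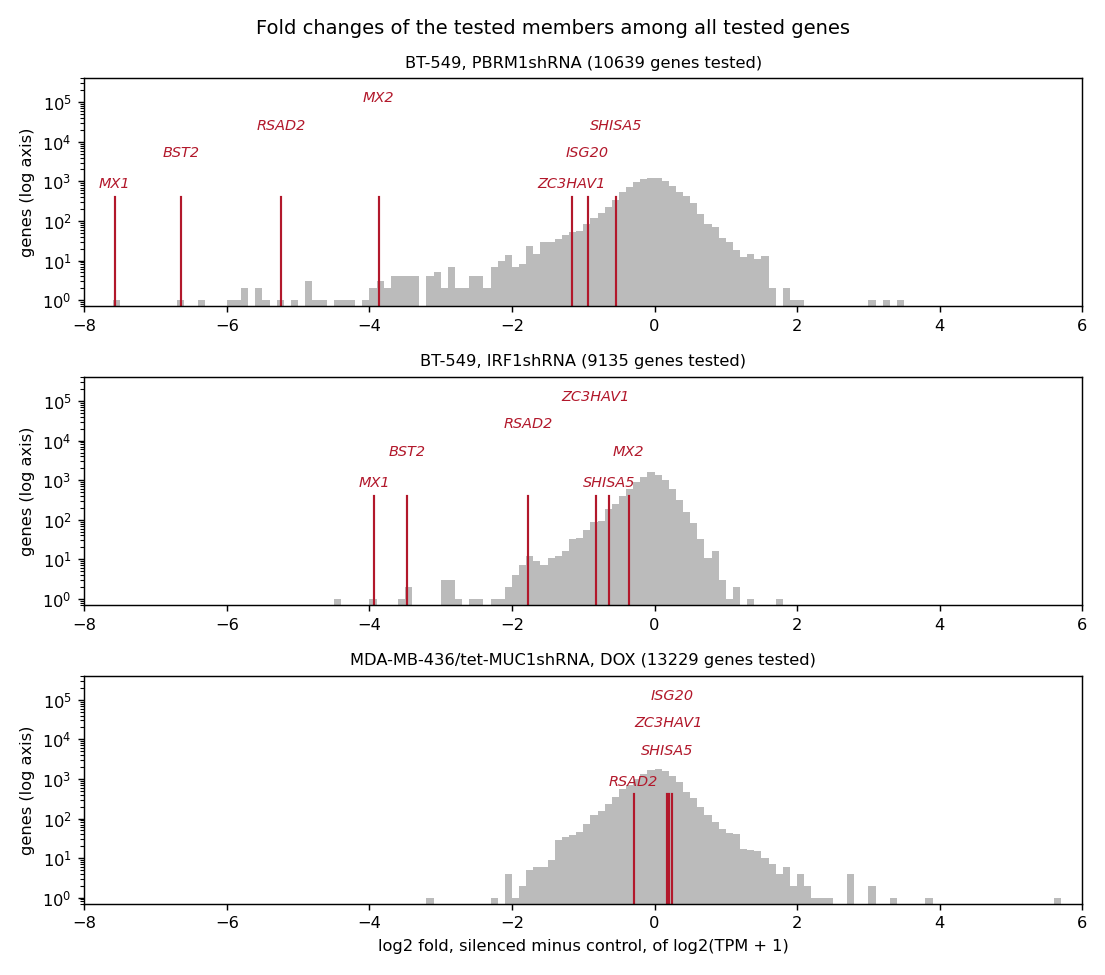
Log2 folds of log2(TPM + 1), silenced minus control or DOX minus vehicle, of the tested members (red lines) over the histogram of all tested genes (grey, bins of 0.1, log count axis). MX1 at -7.57 and BST2 at -6.65 lie at the far left of the PBRM1 panel, and in the MDA-MB-436 panel the 4 tested members lie within the bulk of genes.

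Other restriction factors changed as well. Of 14 genes that act on viral nucleic acid or translation, 13 were tested in the PBRM1 experiment and 13 were lower. Of these 12 were called, beside 34.8% lower and 3.86% called lower among all tested genes, and the median log2 fold was -4.82, against -0.05 over all tested genes. As with the members, 6 of the 13 passed the filter only through control cells and so had to be higher there, and the other 7 were all called lower. OAS2 and OAS1, oligoadenylate synthetases that activate RNase L, were at 0.0455 and 0.0219 TPM in PBRM1shRNA cells against 87.2 and 60.9 TPM in control cells (log2 folds -6.40 and -5.92). IFIT3, a member of the family that binds foreign RNA ends, was at 0.944 TPM in PBRM1shRNA cells against 104 TPM in control cells (-5.75). With IRF1 silenced, 12 of these genes were tested and 12 were lower, 10 called, with a median of -1.76 against -0.06, beside 18.5% lower and 1.78% called lower among all tested genes. Here 8 of the 12, all among those called, passed the filter only through control cells, and of the other 4 all were lower and 2 called. OAS3, OAS1 and OAS2 had the largest folds there, at -2.93, -2.90 and -2.83. In MDA-MB-436 cells 6 of 12 were lower and 2 higher, 0 of them called, with a median of -0.21 against 0.02. The shares over all tested genes there were 23.4% lower and 27% higher.

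Genes that act on capsids, entry, assembly or budding were lower for 11 of 12 tested in the PBRM1 experiment, and 8 passed the fold for a call (34.8% and 3.86% of all tested genes). The remaining gene was higher, and the median log2 fold was -2.32. Of the 8 called genes 5 passed the filter only through control cells, and of the 7 genes not so selected 6 were lower and 3 called. IFITM1, which hinders membrane fusion, was at 21.6 TPM in PBRM1shRNA cells against 1188 TPM in control cells (-5.72). GBP2, an IFN-induced GTPase, was at 0.622 TPM in PBRM1shRNA cells against 30.004 TPM in control cells (-4.25), and HERC6, a HECT-type ubiquitin ligase, at 0.322 TPM against 15.3 TPM (-3.62). With IRF1 silenced, 6 of 7 were lower and 3 called (18.5% and 1.78% of all tested genes), with a median of -0.85. The called genes were IFITM1 (-3.55), HERC6 (-1.72) and HERC5 (-1.25), 2 of these having passed only through control cells. In MDA-MB-436 cells 3 of 11 were lower and 3 higher (23.4% and 27% of all tested genes), 0 called, with a median of 0.12. Of the APOBEC3 cytidine deaminases only APOBEC3F and APOBEC3B were tested in the PBRM1 experiment, and APOBEC3F, which passed only through control cells, was called lower (0.0422 TPM in PBRM1shRNA cells, against 1.49 TPM in control cells, log2 fold -1.26), giving a median of -0.58. APOBEC3B, the single one tested in the IRF1 experiment, was lower there (-0.87, adjusted p = 2.1e-08). With DOX it was lower too (-0.9997, adjusted p = 3.4e-06), while APOBEC3C was higher (0.16, adjusted p = 0.046), and neither was called.

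Relatives of the members, that is dynamin-like GTPases, exonucleases, ZAP-like proteins, SHISA proteins and RSAD1, showed no common direction. In the PBRM1 experiment 5 of 15 were lower and 4 higher, near the 34.8% and 24.6% of all tested genes. In each direction 1 was called, and the median log2 fold was 0.06. After IRF1 silencing 4 of 15 were lower and 1 higher, against 18.5% and 5.76% of all tested genes, with a median of -0.08. With DOX 4 of 17 were lower and 6 higher, against 23.4% and 27%, with a median of 0.11. The called genes in BT-549 cells were relatives of ZAP. PARP12 was at 2.93 TPM in PBRM1shRNA cells against 16.2 TPM in control cells (-2.13) and was also called in the IRF1 experiment (-1.28). ZC3HAV1L, which lies 7490 bases from ZC3HAV1 on the same strand of chromosome 7, was at 11.2 ± 0.429 TPM in PBRM1shRNA cells against 4.64 ± 0.489 TPM in control cells (SD, n = 3 each), a log2 fold of 1.12 (adjusted p = 2.2e-35) opposite in sign to that of ZC3HAV1. In IRF1shRNA cells ZC3HAV1L was instead lower (-0.56, adjusted p = 5.7e-04). In MDA-MB-436 cells SHISA2 was called lower, at 3.08 TPM with DOX against 13.9 TPM with vehicle (-1.87, adjusted p = 5.1e-06).

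Of 9 neighbours and cofactors of the members tested in the PBRM1 experiment, 4 were lower and 1 higher, against 34.8% and 24.6% of all tested genes. The median log2 fold was -0.14, and the single called gene was CMPK2, which passed the filter only through control cells. CMPK2, a mitochondrial nucleotide kinase whose product supplies the viperin substrate, overlaps RSAD2 by 830 bases on the opposite strand. It was at 0.0129 TPM in PBRM1shRNA cells against 9.001 TPM in control cells (-3.30), 0.143% of control. CMPK2 in the IRF1 experiment was below the filter, at 0.0236 TPM in IRF1shRNA cells against 0.561 TPM in control cells, or 4.21%. Of the 7 tested neighbours and cofactors in that experiment 3 were lower and 0 called, with a median of 0.02, against 18.5% lower among all tested genes. With DOX 1 of 9 was lower and 1 higher, against 23.4% and 27% of all tested genes, with a median of -0.01. The library kit was stranded, but whether reads were counted by strand is not given in the sources used here, so the shared stretch leaves the split of reads between RSAD2 and CMPK2 uncertain. MVB12A begins 73 bases from BST2 on the opposite strand of chromosome 19, so that the ISRE core stretch of BST2 lies inside MVB12A. The GAS stretch at -58 lies between BST2 and MVB12A but overlaps an annotated exon. MVB12A was at 6.41 TPM in PBRM1shRNA cells against 7.90 TPM in control cells (-0.26, adjusted p = 0.0058), and at 3.21 TPM in IRF1shRNA cells against 3.16 TPM in control cells (0.02, adjusted p = 0.94). TRIM25, the ubiquitin ligase that assists ZAP, was lower in both BT-549 experiments (-0.96 and -0.85, adjusted p = 7.5e-27 and 1.4e-07), while KHNYN, a nuclease partner of ZAP, did not pass the test in either (-0.12 and 0.26, adjusted p = 0.24 and 0.11).

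Upstream regulators of IFN-stimulated genes were lower for 9 of 14 tested in the PBRM1 experiment, and 6 of the 9 were called, 2 of them having passed the filter only through control cells. Another 3 were higher, and the median fold was -0.40 on the log2 scale. Among all tested genes 34.8% were lower, 3.86% called lower and 24.6% higher. Among those called, USP18, which restrains type I IFN receptor signaling, had a log2 fold of -3.55, and STAT2, a partner of IRF9, had a log2 fold of -2.13. IRF1 itself was lower in this experiment, at 7.46 TPM in PBRM1shRNA cells against 24.4 TPM in control cells (-1.59). After IRF1 silencing 7 of 14 were lower and 4 called, with a median of -0.31, against 18.5% lower and 1.78% called lower among all tested genes. These counts include IRF1 itself (-1.40), the target of the hairpin, whose decrease was set by the design. Of the 7 lower genes 2 had passed the filter only through control cells. After IRF1 the largest folds among those called were those of IRF9 (-1.36) and USP18 (-1.32). PBRM1 did not pass the test, with a log2 fold of 0.02 ± 0.15 (adjusted p = 0.96). With DOX in MDA-MB-436 cells 2 of 15 were lower and 4 higher, against 23.4% and 27% of all tested genes, with a median of 0.04. PBRM1 was lower (-0.60 ± 0.06, adjusted p = 8.5e-05) and IRF1 did not pass the test (0.04 ± 0.10, adjusted p = 0.77).

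**Figure D5:**
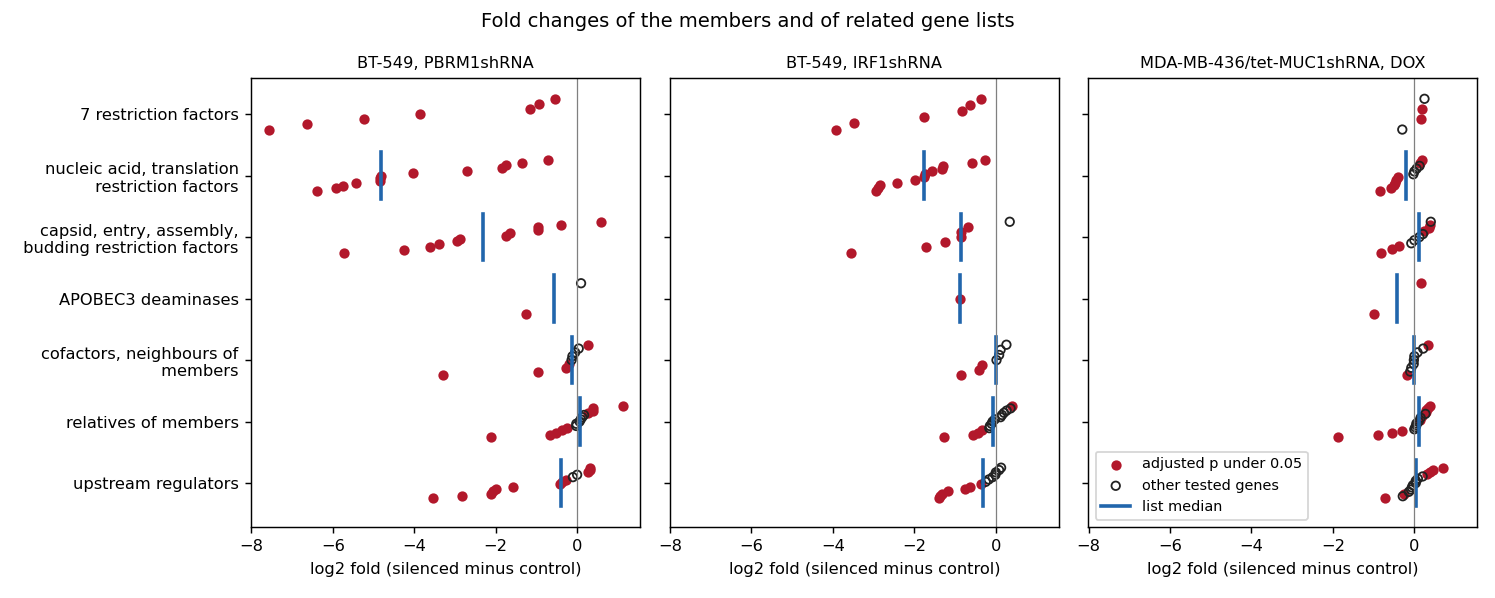
Log2 folds, silenced minus control or DOX minus vehicle, of the members and of genes in 6 related lists (red filled points, adjusted p under 0.05; open points, other tested genes; blue bars, list medians). The restriction factor lists lie mainly below 0 in both BT-549 panels, with medians of -4.82 and -2.32 in PBRM1shRNA cells, and on both sides of 0 in MDA-MB-436 cells. Behind these medians, 6 of 13 and 5 of 12 genes passed the filter only through control cells, which required a negative fold. In the IRF1 panel this held for 8 of 12 and 2 of 7.

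Genes whose 3 log2 folds were nearest to those of a member were sought among 8892 genes tested in all comparisons, by Euclidean distance. RSAD2 lay nearest to IFIT2, IFIT1 and OASL, at distances of 0.461, 0.466 and 0.493, and these had log2 folds of -4.82, -4.83 and -4.83 in the PBRM1 experiment. ZC3HAV1 lay nearest to MYD88 and UGDH, at distances of 0.0642 and 0.0855, and then VCAN at 0.226. MYD88, an adaptor of Toll-like receptors, had log2 folds of -1.20, -0.87 and 0.22 in the PBRM1, IRF1 and MUC1 experiments, beside -1.16, -0.83 and 0.20 for ZC3HAV1. SHISA5 lay nearest to SMIM29, FHL2 and PXDC1, at distances of 0.0713, 0.109 and 0.113. MX1, MX2, BST2 and ISG20 were not tested in all 3 comparisons. The distance is a description over 3 comparisons of 6 libraries each.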

How the data were processed

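Libraries were prepared with a stranded mRNA kit from RNA of triplicate cultures, so p-values concern repeat cultures of single lines. In the BT-549 fits they rest on the spread typical of genes at a like level, not on the spread of each gene alone. The submitters' processing notes name STAR, GRCh38 and DESeq2, with versions not stated; annotation, read counter and TPM program were not given in the sources used here. TPM values were deposited in 3 tables, each column summing to a fixed total that includes short noncoding RNAs. The authors' DESeq2 tables also hold a mean normalized count, used here as a signal of depth pooled over both groups, and fold changes and p-values, which were not used. TPM keeps no library depth. The mean normalized counts sum to 27111321 (PBRM1 experiment), 63114292 (IRF1 experiment) and 11858741 (MUC1 experiment).

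Genes with TPM of at least 1 in at least 3 of 6 libraries were tested on log2(TPM + 1) with limma 3.58.1 in R 4.3.3 (eBayes with trend, two-sided, Benjamini-Hochberg), which was tested on simulated data first. For BT-549 the fits gave infinite prior degrees of freedom, so the standard error follows the level, p can be extremely small, and where it was computed as 0 no p is given. Control columns of the PBRM1 table were assigned to their group by name. In that table same-numbered libraries deviated together (correlations of 0.455, 0.309 and 0.290), so a replicate block was run as an alternative; what the number stands for is not stated. Alternatives changed the pseudocount, filter, scaling, trend, block and replicates. Members, lists and the rule for named genes (all members, up to 3 called genes with the largest fold per list and comparison, the 3 nearest genes, the silenced genes) were chosen with earlier results of these data known; APOBEC3B, APOBEC3C, TRIM25, KHNYN, MVB12A and the MX1 to MX2 ratio were singled out after their values were seen. Gene positions are from GENCODE 29. Of the upstream regulators, 1 gene that the rule would name is not reported here by its own values.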

Additional observations from a re-analysis of the deposited data

How the results depend on the processing

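Each fold of a member kept its direction and its side of the adjusted p threshold under the alternatives that could give it, with the exception of MX2 and ISG20 in the IRF1 experiment as given above. The members called lower numbered 5 in the PBRM1 experiment and 3 in the IRF1 experiment whichever replicate was left out. With a pseudocount of 0.1 or short noncoding RNAs removed ISG20 also passed the fold in the PBRM1 experiment, which gave 6. The stricter filter, a mean of 5 TPM, left 2 in the IRF1 experiment. Members past the test as lower in the IRF1 experiment numbered 3 with a mean of at least 5 TPM, where fewer genes are tested, and 5 to 6 with a replicate left out. Counts over all tested genes moved more. In the PBRM1 experiment a mean of at least 5 TPM gave 1801 lower and 229 called lower, removal of short noncoding RNAs 6435 and 886, a pseudocount of 0.1 gave 646 called lower, and median-ratio scaling 4030 higher. In the IRF1 experiment a mean of at least 5 TPM gave 645 lower, 94 called lower, 172 higher and 3 called higher. Removal of short noncoding RNAs gave 3743, 332, 4500 and 82, and median-ratio scaling 3184 lower, 3119 higher and 8 called higher. A pseudocount of 0.1 gave 325 called lower and 25 called higher, and no filter 864 higher. With a replicate left out, 944 to 1856 were lower, 190 to 1501 higher and 4 to 8 called higher, the highest count of higher genes coming without control replicate 1. In the MUC1 experiment a pseudocount of 0.1 gave 353 called lower and 269 called higher, and a mean of at least 5 TPM 109 and 102. Among the silenced genes, the PBRM1 log2 fold in the IRF1 experiment, which did not pass the test, ranged between -0.0870 and 0.134 with a replicate left out. The MUC1 log2 fold in the IRF1 experiment was 0.0211 with short noncoding RNAs removed. The cause of these shifts was not tested.

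With the replicate number as a block, 927 genes were lower and 189 higher in the IRF1 experiment, against 1693 and 526 without it, and no call of a member changed in any experiment. Same-numbered libraries correlated at -0.209, 0.085 and 0.228 in the IRF1 experiment and at 0.053, -0.036 and 0.006 in the MUC1 experiment, so the numbers were not taken to pair them.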

Other observations

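The control groups of the BT-549 experiments differed mainly in MX1, MX2, BST2 and RSAD2 among the members. Only the control columns of the IRF1 experiment are named as control shRNA, so the 2 groups may not be the same kind of control. With short noncoding RNAs removed and TPM rescaled, MX1 was at 1112 TPM in controls of the PBRM1 experiment and 175 TPM in controls of the IRF1 experiment, a ratio of 6.36. The ratios of MX2, BST2 and RSAD2 were 5.64, 6.41 and 8.65, those of ISG20, ZC3HAV1 and SHISA5 were 1.95, 1.38 and 1.45, and the median over 11927 genes was 1.12. Of these genes 88.4%, 69.2% and 72.8% had a smaller ratio than ISG20, ZC3HAV1 and SHISA5. For MX1, MX2, BST2 and RSAD2 the shares were 99.3%, 99.2%, 99.3% and 99.6%. The tables were scaled separately, and experiment and control group cannot be told apart, so these values stand side by side without a test.

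Nearest genes over the BT-549 experiments alone were added after seeing the data for the 3 members not tested in MDA-MB-436 cells, among 9031 genes tested in both. MX1 lay nearest to BST2, OAS2 and IFI6, at distances of 1.03, 1.61 and 1.78, and so had no close match. BST2 lay nearest to OAS2, OAS1 and IFITM1, at distances of 0.689, 0.928 and 0.932. MX2 lay nearest to IL6, C1R and CYTL1, at distances of 0.543, 0.710 and 0.810. IL6, an inflammatory cytokine, had log2 folds of -3.82 and -0.90 in the PBRM1 and IRF1 experiments, beside -3.87 and -0.36 for MX2.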
